A study of Mus musculus with 8 samples.

Results

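The genes described here encode proteins of the nuclear splicing machinery: the heterogeneous nuclear ribonucleoproteins (hnRNPs), the serine and arginine-rich splicing factors (SR proteins), the Sm and LSm proteins, and proteins of the U1 and U2 small nuclear ribonucleoproteins (snRNPs). They were chosen by name, as protein-coding genes whose symbol starts with Hnrnp, with Srsf, Lsm or Snrp followed by a number or, for Snrp, a letter from a to g, or with Sf3a or Sf3b. Of 54532 genes in the count table, 64 matched, and 62 of these had at least 20 counts summed over the 8 libraries. The exceptions were Hnrnph2, with 18 counts, and Srsf12, with 0. Of the 62 genes, 61 passed the filter on low counts and were tested. The exception was Lsm5, with 0, 3, 1 and 0 counts in the WT libraries 1 to 4 and 9, 4, 3 and 5 in Rank-knockout replicates 1 to 4.

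Intestinal epithelial cells came from mice at lactation day 5, with 4 WT and 4 Rank-knockout samples, each labelled as its own mouse. Rank, also named Tnfrsf11a, is the receptor of the cytokine RANKL. Per the study's methods, mice carried a conditional Rank allele (Rank flox) that was deleted by Cre under the Villin promoter, which is active in the intestinal epithelium, on a C57BL/6J background, with littermates as controls. The labels give the lactation stage of the animals and no age. The libraries hold tags from the 3′ ends of polyadenylated RNA, so a value counts the transcripts of a gene and does not tell its splice isoforms apart.

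Splicing removes introns from pre-mRNA in the spliceosome, which is built from snRNPs. Each of the U1, U2, U4 and U5 snRNAs carries a ring of Sm proteins, while U6 carries a ring of LSm proteins. U1 marks the 5′ splice site and U2, with the SF3a and SF3b complexes, the branch site. SR proteins mostly bind exons and help splice sites to be recognised, and hnRNPs coat the pre-mRNA and often oppose them, so the balance of these families helps to set which exons are kept. In the intestine, dividing cells lie in the crypts, and their progeny stop dividing as they move onto the villi.

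Total counts per library ran from 1530781 to 4335653. Of 9855 genes tested, 15.8% were higher and 14.6% lower in Rank-knockout at an adjusted p under 0.05 (edgeR's quasi-likelihood test with Benjamini-Hochberg adjustment), and the median log2 fold change was 0.02. The numbers were 1555 higher and 1438 lower with TMM scaling, and 2575 and 857 with library totals, where the median shifted by 0.20. WT replicate 2 had the largest total, and the other WT libraries had 1530781 to 1616024 counts. Rank-knockout libraries had 2103716 to 4321154 counts, so each was deeper than WT libraries 1, 3 and 4. Tnfrsf11a had 60.7 ± 17.7 counts per 1000000 (CPM) on average (SD, n = 4) in WT and 37.98 ± 8.64 in Rank-knockout. Its log2 fold change was -0.67 ± 0.22 (SE, adjusted p = 0.032), but 3′ tags need not lie in the deleted exons, so this value does not check the labels. It did not pass when any 1 of WT libraries 1, 4 and Rank-knockout libraries 1, 3 was left out (-0.52 to -0.64, adjusted p = 0.075 to 0.10). Of the 8 epithelial markers all were measured, with summed levels of 12589 to 13706 CPM in WT and 9502 to 11861 in Rank-knockout, and 4 fell and 1 rose. Among these, Epcam and Cdh17 did not pass as lower with library totals, nor Krt18 as higher with RLE size factors, DESeq2 or limma-voom, and Cdh17 also missed the threshold with limma-voom. None of the 3 passed when any 1 of WT libraries 3, 4 and Rank-knockout libraries 2, 3 was left out (-0.45 to -0.42, -0.45 to -0.38 and 0.33 to 0.41 over the libraries whose omission ended each call). Markers of other cells were low in all libraries: those of T cells summed to 24.6 to 47.9 CPM in WT and 17.4 to 37.1 in Rank-knockout, those of B and plasma cells to 4.78 to 10.4 and 0.4496 to 4.48 (Cd79a at 0), those of stroma, vessel and muscle to 9.98 to 18.8 and 5.85 to 18.01, and myeloid markers to 4.098 to 10.3 and 3.69 to 12.1 (Adgre1 at 0).

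Splicing genes were mostly higher in Rank-knockout. Of the 61 tested, 35 rose and 0 fell at an adjusted p under 0.05, where the shares over all tested genes were 15.8% and 14.6%. No member was lower at an unadjusted p under 0.05 in edgeR (0 members), and DESeq2 and limma-voom called 0 lower. The median log2 fold change of the members was 0.58, against 0.02 over all tested genes, and 57 of 61 were above 0 (93.4%, against 51.7% of all tested genes). For 34 members every Rank-knockout library lay above every WT library, and for 0 every one lay below, where 14.4% and 14.3% of all tested genes did so. The largest rises, with all libraries in the fit, were those of Snrpf, Srsf1, Snrpd2, Lsm8, Snrpd1 and Lsm6. Without WT replicate 2 those of Snrpf, Srsf1 and Lsm8 were smaller (1.20, 1.03 and 0.82). Those of Snrpd2, Snrpd1 and Lsm6 were then larger (1.33, 1.17 and 1.15). These are bulk samples, in which fewer cells of a type and less RNA per cell cannot be told apart.

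**Figure D1:**
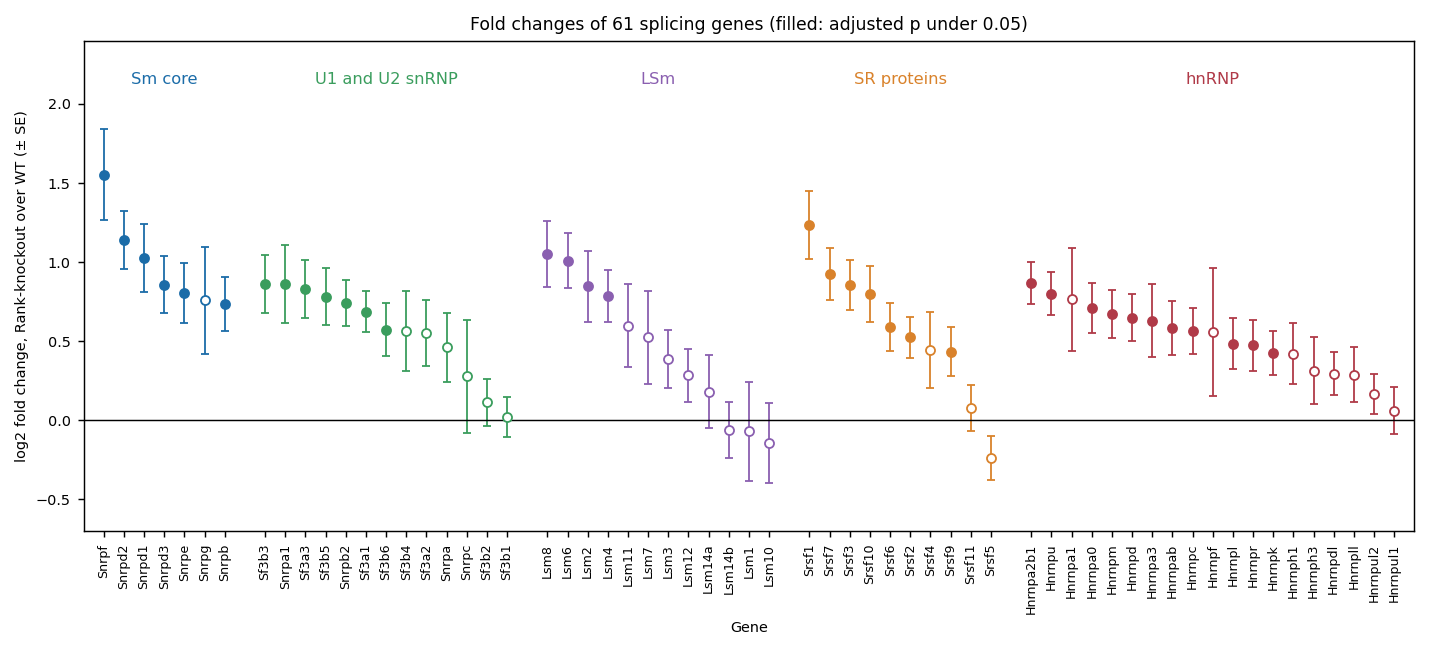
Log2 fold change of each tested splicing gene, Rank-knockout over WT, by role, with points for the edgeR estimate and bars for its SE. Filled points are the 35 genes past the threshold, all of them above 0, and the lowest point is Srsf5 at -0.24.

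RefSeq promoter windows, 250 bases before to 50 after the transcription start, were at hand for 53 of the 62 genes. For each role the called rise with the smallest p that had such a window within 100 bases of the GENCODE start is shown, for the 150 bases before the start, 5′ to 3′ on the gene's strand (GRCm38.p6). Sf3b1 and Srsf5, which did not pass the test, are shown for contrast and were chosen after their values were seen. Capitals mark matches, on either strand, to the E-box CACGTG, the ETS-type CCGGAAG, the NRF1-type GCGCATGCG, the CCAAT box, the TATA box TATAAA, the CRE TGACGTCA, the E2F-type GCGGGAA or the GC box GGGCGG, and neighbouring or overlapping matches run together.
Snrpf (chr10:93589659-93589808, minus strand): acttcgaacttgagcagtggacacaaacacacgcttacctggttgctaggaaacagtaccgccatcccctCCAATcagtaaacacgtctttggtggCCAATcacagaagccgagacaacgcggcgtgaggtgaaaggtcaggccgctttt
Sf3a1 (chr11:4160204-4160353, plus strand): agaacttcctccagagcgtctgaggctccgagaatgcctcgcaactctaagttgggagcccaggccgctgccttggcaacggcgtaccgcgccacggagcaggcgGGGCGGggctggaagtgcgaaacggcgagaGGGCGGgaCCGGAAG
Lsm6 (chr8:78821153-78821302, minus strand): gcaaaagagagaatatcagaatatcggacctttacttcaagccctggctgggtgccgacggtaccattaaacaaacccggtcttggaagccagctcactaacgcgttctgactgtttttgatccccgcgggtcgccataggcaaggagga
Srsf7 (chr17:80207306-80207455, minus strand): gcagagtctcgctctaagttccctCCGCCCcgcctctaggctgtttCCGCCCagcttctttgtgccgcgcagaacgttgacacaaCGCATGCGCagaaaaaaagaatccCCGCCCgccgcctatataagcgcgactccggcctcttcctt
Hnrnpa2b1 (chr6:51469895-51470044, minus strand): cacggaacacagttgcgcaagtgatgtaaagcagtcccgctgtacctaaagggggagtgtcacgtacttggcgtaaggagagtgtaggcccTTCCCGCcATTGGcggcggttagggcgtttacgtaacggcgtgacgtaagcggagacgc
Sf3b1 (chr1:55027479-55027628, minus strand): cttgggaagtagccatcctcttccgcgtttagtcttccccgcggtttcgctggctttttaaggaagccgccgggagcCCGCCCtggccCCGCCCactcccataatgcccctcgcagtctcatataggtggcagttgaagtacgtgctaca
Srsf5 (chr12:80945349-80945498, plus strand): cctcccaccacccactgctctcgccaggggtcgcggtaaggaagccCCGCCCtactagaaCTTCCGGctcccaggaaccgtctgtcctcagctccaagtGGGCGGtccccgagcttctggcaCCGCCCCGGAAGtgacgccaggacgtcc

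The 2 matches in the Snrpf window are CCAAT boxes, those in Hnrnpa2b1 are a CCAAT box and an E2F-type match, and Lsm6 has 0 matches to any of these motifs in these 150 bases. Over the whole 300-base windows, CCAAT occurred in 17 of 31 members that rose and in 7 of 21 that did not pass the test, against 39.1% of tested genes and 38.2% of all promoters. The ETS-type motif occurred in 8 and 8 of the same sets, against 20.8% of tested genes and 11.01% of all promoters. The GC box was in 22 and 16, against 66.99% and 42.7%. The E-box, the NRF1-type motif, the TATA box, the CRE and the E2F-type motif were in 4, 2, 6, 2 and 7 of the 53 member promoters, against 10.8%, 4.11%, 6.93%, 3.503% and 8.97% of tested genes and 7.67%, 2.19%, 13.2%, 2.23% and 5.58% of all promoters. The NRF1-type motif and the TATA box thus change sides with the set they are compared with. A match is only a run of letters and was not set against binding data.

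The Sm core had the highest median of the 5 roles. The 7 Sm genes (Snrpb, Snrpd1, Snrpd2, Snrpd3, Snrpe, Snrpf and Snrpg) encode the proteins that close as a ring around the U1, U2, U4 and U5 snRNAs. All 7 were tested and 6 rose, where 15.8% of all tested genes did so, and their median log2 fold change was 0.86. Snrpf (SmF; ENSMUSG00000020018; GRCm38 chromosome 10, 93583029 to 93589706, minus strand) had 15.8, 5.83, 15.02 and 14.6 CPM in WT replicates 1 to 4 and 44.8, 27.4, 29.2 and 37.4 CPM in Rank-knockout replicates 1 to 4. WT replicate 2 was the lowest of all, and the groups did not overlap. Its log2 fold change was 1.55 ± 0.29 (SE, adjusted p = 0.0013), the largest of the 61 with all libraries in the fit. It rests on 22 to 23 counts in each WT library. Without WT replicate 2 it was 1.20 (edgeR adjusted p = 9.9e-04), below Snrpd2 (1.33) and Snrpg (1.34). Snrpd2 (SmD2; ENSMUSG00000040824; GRCm38 chromosome 7, 19149722 to 19153542, plus strand) had 28.1, 35.2, 22.5 and 20.6 CPM in WT against 63.7, 57.8, 63.8 and 55.6 CPM in Rank-knockout. The Rank-knockout libraries were close together and all above WT, with a log2 fold change of 1.14 ± 0.18 (adjusted p = 5.6e-04).

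Snrpd3 (SmD3; ENSMUSG00000020180; GRCm38 chromosome 10, 75517551 to 75537381, plus strand) was the most counted Sm gene, with 541, 754, 494 and 395 CPM in WT against 1062, 1026, 1027 and 852 CPM in Rank-knockout. WT replicate 2 was the nearest of its group to the Rank-knockout libraries, without overlap, and the log2 fold change was 0.86 ± 0.18 (adjusted p = 0.0025). Snrpd1, Snrpe and Snrpb rose by 1.03, 0.81 and 0.74 on the log2 scale. Snrpg (SmG) had 10.96, 17.2, 6.15 and 3.99 CPM in WT against 24.8, 15.8, 15.3 and 14.8 CPM in Rank-knockout. Its WT libraries were spread widely and WT replicate 2 lay above 3 of the Rank-knockout libraries, so that a log2 fold change of 0.76 ± 0.34 did not pass the test (adjusted p = 0.10). Without WT replicate 2 it passed (1.34, adjusted p = 0.0053), as it did with library totals (0.97, adjusted p = 0.040) and with no filter (0.79, adjusted p = 0.023). Summed over the 7 genes, levels were 864, 1164, 860.5 and 646 CPM in WT against 1954, 1619, 1700.0 and 1392 CPM in Rank-knockout, a ratio of means of 1.89.

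Sm rings do not form on their own in cells: the SMN complex loads Sm proteins onto snRNA in the cytoplasm, after a methylosome of Prmt5, Wdr77 and Clns1a has prepared them. Of 16 genes listed for snRNP assembly, 14 were tested and 10 rose, with a median log2 fold change of 0.90, where 15.8% of all tested genes rose and 14.6% fell. Gemin5, which recognises snRNA, had the smallest p, at 4.66 ± 2.003 CPM in WT against 17.7 ± 5.18 CPM in Rank-knockout (± SD of 4 libraries), and a log2 fold change of 1.78 ± 0.33 (adjusted p = 0.0011). Without WT library 4 or Rank-knockout library 1 the number that rose was 6. Smn1 rose by 0.94, Prmt5 by 1.04 and Wdr77 by 1.14. Gemin7 (-0.37, adjusted p = 0.069) and Tgs1, which caps snRNAs (-0.08, adjusted p = 0.77), did not pass the test, and Gemin7 passed as lower without WT library 4 (-0.49, adjusted p = 0.030).

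Among proteins of the U1 and U2 snRNPs, all 13 genes had a log2 fold change above 0, and differences between subunits were not tested. Of 13 genes, 7 rose, where 15.8% of all tested genes did so, and the median log2 fold change was 0.57. The 7 were Sf3a1 and Sf3a3 of SF3a, Sf3b3, Sf3b5 and Sf3b6 of SF3b, and Snrpa1 and Snrpb2, the U2-A′ and U2-B″ proteins. Sf3a1 (ENSMUSG00000002129; GRCm38 chromosome 11, 4160350 to 4182541, plus strand) had 125, 125, 110.0 and 119 CPM in WT against 197, 193, 211 and 172 CPM in Rank-knockout. Both groups were narrow and clearly apart, with a log2 fold change of 0.69 ± 0.13 (adjusted p = 0.0014). Snrpb2 (ENSMUSG00000008333; GRCm38 chromosome 2, 143063039 to 143072853, plus strand) had 105, 103, 132 and 107 CPM in WT against 207, 173, 207 and 159 CPM in Rank-knockout. WT replicate 3 stood above the other WT libraries but below every Rank-knockout library, and the log2 fold change was 0.74 ± 0.15 (adjusted p = 0.0017).

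The most counted subunits did not pass the test. Sf3b2 (ENSMUSG00000024853; GRCm38 chromosome 19, 5273932 to 5295455, minus strand), an SF3b scaffold protein, had 472, 595, 478 and 419 CPM in WT against 603, 531, 522 and 471 CPM in Rank-knockout. The groups overlapped over most of their range, and the log2 fold change was 0.11 ± 0.15 (adjusted p = 0.59). Sf3b1, the SF3b subunit that holds the branch site, had 226, 182, 204 and 215 CPM in WT against 214, 207, 208 and 209.6 CPM in Rank-knockout, where all 4 libraries lay within the range of WT (log2 fold change 0.02 ± 0.13, adjusted p = 0.92). Sf3b3, by contrast, had 60.3, 69.7, 43.7 and 45.3 CPM in WT against 122, 106, 95.3 and 79.1 CPM in Rank-knockout, without overlap (log2 fold change 0.86 ± 0.18, adjusted p = 0.0029). Snrpa1 rose by 0.86 and did not pass when any 1 of WT libraries 3, 4 and Rank-knockout library 1 was left out (0.65 to 0.77, adjusted p = 0.0503 to 0.063). Sf3b6 rose by 0.57 and did not pass when any 1 of WT libraries 2, 4 and Rank-knockout library 3 was left out (0.46 to 0.52, adjusted p = 0.0511 to 0.058). Sf3a2 gave 0.55 (adjusted p = 0.056) and passed without WT replicate 2 (0.81, adjusted p = 0.0026) or Rank-knockout replicate 4 (0.64, adjusted p = 0.033), with library totals (0.76, adjusted p = 0.011) or with no filter (0.58, adjusted p = 0.0071), and Sf3b4 gave 0.56 (adjusted p = 0.10). Snrpa and Snrpc, the U1-A and U1-C proteins, gave 0.46 (adjusted p = 0.12) and 0.28 (adjusted p = 0.59) on 346 and 110 counts over the 8 libraries, and the data are thin for both.

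In the LSm family, the calls lay in genes of the ring that U6 carries. LSm2 to LSm8 form the nuclear ring on U6, while LSm1 in place of LSm8 gives the cytoplasmic ring that acts in mRNA decay. LSm10 and LSm11 belong to the U7 snRNP, which processes histone mRNA, and the LSm14 proteins act in translational repression. Of the 6 tested genes for LSm2 to LSm8, 4 rose (Lsm2, Lsm4, Lsm6 and Lsm8), with a median log2 fold change of 0.82. Of these, Lsm2, Lsm4 and Lsm6 are shared with the decay ring, and only Lsm8 belongs to the U6 ring alone. Of the 6 other LSm genes, 0 rose by edgeR, DESeq2 or limma-voom, which is near the 15.8% of all tested genes, and the median was 0.06. By edgeR's unadjusted p, 1 was under 0.05, Lsm11 (0.60, adjusted p = 0.094), which passed without Rank-knockout replicate 4 (0.73, adjusted p = 0.042). With library totals Lsm12 passed as well as Lsm11. The difference between these sets was not tested.

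Lsm6 (ENSMUSG00000031683; GRCm38 chromosome 8, 78804865 to 78821140, minus strand), the most counted LSm gene, had 268, 319, 229 and 172 CPM in WT against 564, 485, 516 and 432 CPM in Rank-knockout. The highest WT library was replicate 2, still well below the lowest of Rank-knockout, and the log2 fold change was 1.01 ± 0.17 (adjusted p = 7.7e-04). Lsm8 (ENSMUSG00000044155; GRCm38 chromosome 6, 18848579 to 18855751, plus strand), the subunit found only in the nuclear ring, had 28.8, 16.2, 28.7 and 32.6 CPM in WT against 58.2, 53.7, 55.3 and 46.4 CPM in Rank-knockout. WT replicate 2 was the lowest, the groups did not overlap, and the log2 fold change was 1.05 ± 0.21 (adjusted p = 0.0018). Lsm1, its counterpart in the decay ring, had 8.22, 5.32, 9.56 and 5.99 CPM in WT against 5.31, 6.004, 6.29 and 8.96 CPM in Rank-knockout, with overlap throughout (log2 fold change -0.07 ± 0.31, adjusted p = 0.89). The data are thin for Lsm1, with 145 counts over the 8 libraries. Lsm10 gave -0.14, Lsm14b -0.06, Lsm14a 0.18 and Lsm12 0.28, with adjusted p from 0.21 to 0.83. Lsm3 and Lsm7 gave 0.39 and 0.53 (adjusted p = 0.12 and 0.19). Of the 9 tested genes listed as decay and U7 partners of LSm proteins (background 15.8% higher), 3 rose: the decapping factor Dcp1a (1.11), the histone stem-loop binding protein Slbp (0.96) and the exonuclease Eri1 (0.67). Dcp1a did not pass when any 1 of WT libraries 1, 2, 3 and Rank-knockout libraries 1, 3 was left out (0.76 to 1.23, adjusted p = 0.0504 to 0.19), nor did Slbp when any 1 of WT libraries 2, 3, 4 and Rank-knockout libraries 1, 2, 3 was left out (0.75 to 1.02, adjusted p = 0.0506 to 0.12) and Eri1 when any 1 of WT libraries 2, 4 and Rank-knockout libraries 1, 3 was left out (0.55 to 0.63, adjusted p = 0.056 to 0.089). With DESeq2 neither Dcp1a (1.08, adjusted p = 0.089) nor Slbp (0.95, adjusted p = 0.067) passed, which left 1 rise on the list, and the same held with no filter (adjusted p = 0.080 and 0.064). Dcp1a also missed the threshold with limma-voom (1.03, adjusted p = 0.0511). The decay factors Ddx6, Xrn1 and Patl1 gave -0.09, -0.19 and -0.04 (adjusted p from 0.41 to 0.89). Dcp2, Edc3 and Edc4 gave 0.18, 0.19 and 0.26 (adjusted p from 0.45 to 0.59).

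SR proteins rose in 7 of 10 tested genes, with a median log2 fold change of 0.56, where 15.8% of all tested genes rose. Srsf1 (ENSMUSG00000018379; GRCm38 chromosome 11, 88047373 to 88053755, plus strand), the founding SR protein, which acts in constitutive and regulated splicing, had 256, 121, 242 and 219.7 CPM in WT against 647, 402, 453 and 459 CPM in Rank-knockout. WT replicate 2 was the lowest and Rank-knockout replicate 1 the highest, and the groups did not overlap. Its log2 fold change was 1.23 ± 0.22 (adjusted p = 0.0011). Srsf7 (ENSMUSG00000024097; GRCm38 chromosome 17, 80200080 to 80207307, minus strand) had 82.9, 61.1, 63.5 and 55.9 CPM in WT against 138, 129, 134 and 98.3 CPM in Rank-knockout. Again no library overlapped, and the log2 fold change was 0.93 ± 0.16 (adjusted p = 9.2e-04). Srsf3, its closest relative in the family, had 90.4, 94.5, 109 and 77.2 CPM in WT against 197, 140.0, 188 and 146 CPM in Rank-knockout, also without overlap (log2 fold change 0.85 ± 0.16, adjusted p = 0.0012). Srsf10, Srsf6 and Srsf2 rose by 0.80, 0.59 and 0.52.

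Srsf9 rose by 0.43 (adjusted p = 0.0461) and did not pass when any 1 of WT libraries 1, 2, 3, 4 and Rank-knockout libraries 1, 2, 3 was left out (0.35 to 0.44, adjusted p = 0.0516 to 0.14). Srsf5 was the lowest of the 61 genes by fold change. It had 123, 111, 105 and 124 CPM in WT against 86.8, 109, 91.3 and 107 CPM in Rank-knockout, the ranges overlapped, and the log2 fold change of -0.24 ± 0.14 did not pass the test (adjusted p = 0.21). Srsf11, the most counted SR gene in WT, had 339.8, 338, 235 and 294 CPM there and 344, 322, 323 and 288 CPM in Rank-knockout, with overlap (log2 fold change 0.08 ± 0.15, adjusted p = 0.71), and Srsf4 gave 0.44 (adjusted p = 0.18). SR proteins are phosphorylated by SRPK and CLK kinases and carried into the nucleus by Tnpo3. Of 14 such genes and SR-like proteins tested, 2 rose, Tnpo3 (0.52 ± 0.14, adjusted p = 0.0086) and Srpk2 (0.62 ± 0.21, adjusted p = 0.036), and 1 fell, Clk1 (-0.46 ± 0.15, adjusted p = 0.029). These counts are no larger than the shares over all tested genes, of which 15.8% rose and 14.6% fell. Srpk2 did not pass when any 1 of WT libraries 1, 3, 4 and Rank-knockout libraries 1, 2, 3 was left out (0.51 to 0.65, adjusted p = 0.056 to 0.12), nor with DESeq2 (0.60, adjusted p = 0.056) or limma-voom (0.56, adjusted p = 0.060). Clk1 did not pass when any 1 of WT libraries 1, 4 and Rank-knockout libraries 1, 3 was left out (-0.40 to -0.47, adjusted p = 0.056 to 0.092), with no filter (-0.42, adjusted p = 0.067) or under library totals (-0.26), with which 7 genes of this list were called higher.

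Of 19 hnRNP genes tested, 11 rose, with a median log2 fold change of 0.56, and all 19 were above 0. Over all tested genes 15.8% rose and 51.7% were above 0. The number that rose was 6 without WT library 1 or Rank-knockout library 3, and 7 without WT library 3 or Rank-knockout library 1. Hnrnpa2b1 (ENSMUSG00000004980; GRCm38 chromosome 6, 51460932 to 51469894, minus strand), a member of the A/B group that binds nascent RNA, had 232, 189.8, 223 and 192 CPM in WT against 391, 348, 384 and 399.9 CPM in Rank-knockout. The 4 libraries of each genotype were close together and the groups far apart. Its log2 fold change was 0.87 ± 0.13 (adjusted p = 4.0e-04), the smallest p of the 61. Hnrnpu (ENSMUSG00000039630; GRCm38 chromosome 1, 178321108 to 178337797, minus strand), which also binds chromatin, had 367, 316, 336 and 303 CPM in WT against 662, 558, 552 and 531 CPM in Rank-knockout, without overlap. Its log2 fold change was 0.80 ± 0.14 (adjusted p = 7.5e-04). Hnrnpa0, Hnrnpm, Hnrnpd, Hnrnpab and Hnrnpc rose by 0.71, 0.67, 0.65, 0.58 and 0.57.

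The most counted hnRNP gene, Hnrnpk (ENSMUSG00000021546; GRCm38 chromosome 13, 58391142 to 58403343, minus strand), which binds C-rich RNA, had 515, 617, 599 and 561 CPM in WT against 889, 676, 766 and 746 CPM in Rank-knockout. The groups did not overlap, but the gap between them was small. Hnrnpk rose by 0.42 ± 0.14 (adjusted p = 0.031) and did not pass when any 1 of WT libraries 1, 3, 4 and Rank-knockout libraries 1, 3 was left out (0.35 to 0.43, adjusted p = 0.067 to 0.12). Hnrnpl had 505, 472, 544 and 517 CPM in WT against 943, 539.6, 659 and 708 CPM in Rank-knockout. Rank-knockout replicate 1 stood far above the rest and replicate 2 lay within the WT range, and its rise was 0.49 ± 0.16 (adjusted p = 0.035). It did not pass when any 1 of WT libraries 1, 2, 3, 4 and Rank-knockout libraries 1, 3 was left out (0.32 to 0.52, adjusted p = 0.0533 to 0.11). Hnrnpr (0.47, adjusted p = 0.033) did not pass when any 1 of WT libraries 1, 3 and Rank-knockout libraries 1, 2, 3 was left out (0.36 to 0.49, adjusted p = 0.057 to 0.11). Hnrnpa3 (0.63, adjusted p = 0.0497) did not pass when any 1 of WT libraries 1, 2, 3, 4 and Rank-knockout libraries 1, 3, 4 was left out (0.46 to 0.70, adjusted p = 0.057 to 0.17), and Hnrnpab did not pass when any 1 of WT libraries 1, 4 and Rank-knockout library 3 was left out (0.43 to 0.53, adjusted p = 0.0515 to 0.077). Srsf9 and Hnrnpa3 missed the threshold with RLE size factors, DESeq2 and limma-voom too (adjusted p = 0.051 and 0.0548 with RLE). Hnrnpul1 and Hnrnpul2, relatives of Hnrnpu, gave 0.06 and 0.17 (adjusted p = 0.79 and 0.33). Hnrnpa1 had only 288 counts over the 8 libraries, and its value of 0.76 ± 0.33 did not pass the test (adjusted p = 0.087), though it did without WT replicate 4 (1.11, adjusted p = 0.022), with limma-voom (0.97, adjusted p = 0.0461), with library totals (0.96, adjusted p = 0.036) and with no filter (0.81, adjusted p = 0.032). Hnrnph1, Hnrnph3, Hnrnpf, Hnrnpdl and Hnrnpll gave 0.42, 0.31, 0.56, 0.30 and 0.29, none past the threshold in edgeR's test (adjusted p = 0.11, 0.27, 0.31, 0.11 and 0.22).

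**Figure D2:**
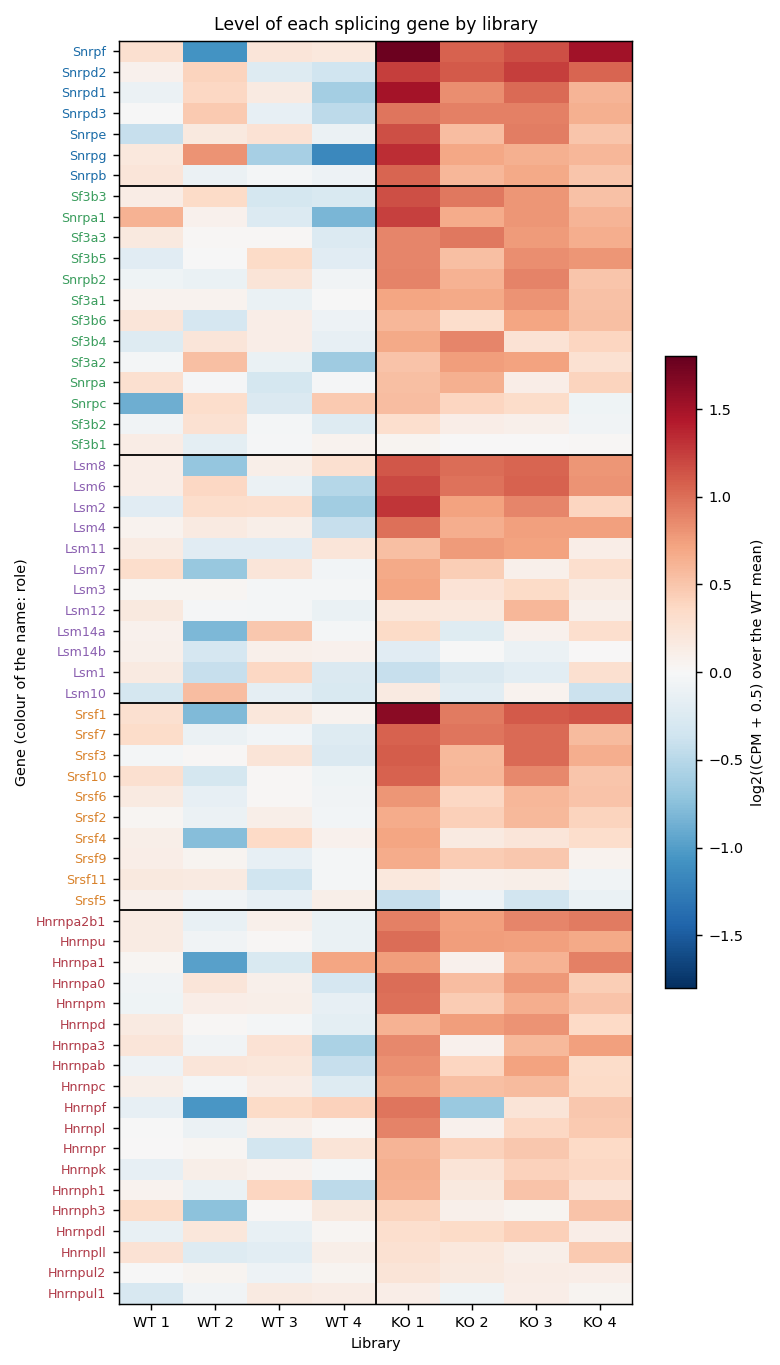
Level of each tested splicing gene in each library, as log2((CPM + 0.5) over the WT mean of the gene), with genes in rows by role and libraries in columns. Rank-knockout (KO) columns are mostly red, KO 1 most of all, and the rows of Sf3b1, Sf3b2 and Srsf11 are pale in these columns.

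By library, the median of the members relative to the WT mean was 0.11, -0.0019, 0.04 and -0.08 on the log2 scale in WT replicates 1 to 4 and 0.77, 0.49, 0.66 and 0.48 in Rank-knockout replicates 1 to 4. Every Rank-knockout library was above every WT library. Rank-knockout replicate 1 was the highest of its group for 41 of the 61 genes and replicate 4 the lowest for 34. In WT, replicate 4 was the lowest for 23 genes and replicate 1 the highest for 22. WT replicate 2 was the lowest for 21 and the highest for 19. Summed levels did not overlap between genotypes in any role. Those of hnRNPs were 3286 to 3622 CPM in WT against 4513 to 5863 CPM in Rank-knockout, and those of SR proteins 1092 to 1328 and 1622 to 2090.2 CPM. LSm genes summed to 439 to 594 and 805 to 1038 CPM, and U1 and U2 genes to 1068 to 1314 and 1385 to 1692 CPM. The ratios of means were 1.45, 1.503, 1.69 and 1.299, and Sf3b2 and Sf3b1 made up 41.0% and 17.5% of the U1 and U2 counts in WT. As a share of all counts, the 62 genes took 0.614 to 0.708% in WT and 1.05 to 1.38% in Rank-knockout.

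**Figure D3:**
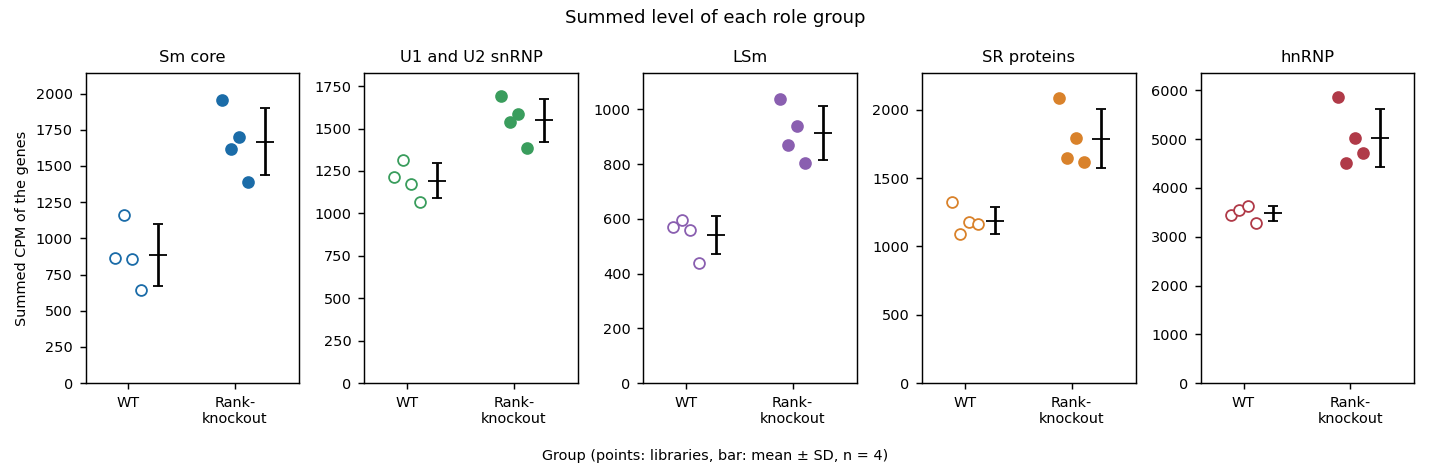
Summed CPM of the genes of each role, with a point for each library and the mean ± SD (n = 4) beside them. In each role the Rank-knockout points lie above all WT points, with the largest ratio of means, 1.89, for the Sm core.

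A ratio of 2 genes within a library does not depend on how libraries are scaled. For 10 pairs of paralogs, or of proteins that hold the same place in a ring or a related snRNP, the log2 count ratio was compared by an exact two-sided permutation test over 70 assignments, whose smallest p is 0.0286, and adjusted over the 10 pairs. After adjustment 0 of the 10 pairs passed 0.05, which at least 6 pairs at the smallest p would have been needed to reach. At an unadjusted p under 0.05 there were 2, both at the smallest p. The pairs were chosen with earlier results of these data known, so their p-values are not those of pairs fixed in advance. The ratio of Srsf1 to Srsf9 was 1.801, 0.796, 1.99 and 1.73 in WT and 2.596, 2.11, 2.25 and 2.702 in Rank-knockout, on the log2 scale. It was higher in all 4 Rank-knockout libraries, by 0.84 ± 0.30 (SE, exact permutation p = 0.0286, adjusted p = 0.143). The ratio of Srsf5 to Srsf6 was 0.73, 0.91, 0.65 and 0.97 in WT and -0.41, 0.35, -0.13 and 0.19 in Rank-knockout. It was lower in all 4 Rank-knockout libraries, with a difference of -0.82 ± 0.18 (exact permutation p = 0.0286, adjusted p = 0.143).

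The ratio of Lsm1 to Lsm8, the subunits that tell the decay ring from the U6 ring, was -1.77, -1.58, -1.55 and -2.38 in WT and -3.43, -3.12, -3.09 and -2.35 in Rank-knockout. Rank-knockout replicate 4 lay within the WT range and the other 3 below it, a difference of -1.18 ± 0.30 (exact permutation p = 0.0571, adjusted p = 0.143). Lsm1 had only 145 counts over the 8 libraries. Hnrnpd against Hnrnpdl differed by 0.34 ± 0.12 (exact permutation p = 0.0571). The other 6 differences were -0.14 ± 0.39 for Hnrnpa1 against Hnrnpa2b1, 0.07 ± 0.49 for Hnrnph1 against Hnrnpf, 0.18 ± 0.20 for Hnrnpl against Hnrnpll, -0.07 ± 0.17 for Srsf3 against Srsf7, -0.30 ± 0.26 for Snrpa against Snrpb2 and 0.27 ± 0.24 for Lsm14a against Lsm14b. In each of these 6 pairs the SD of the WT libraries was larger than the difference itself.

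**Figure D4:**
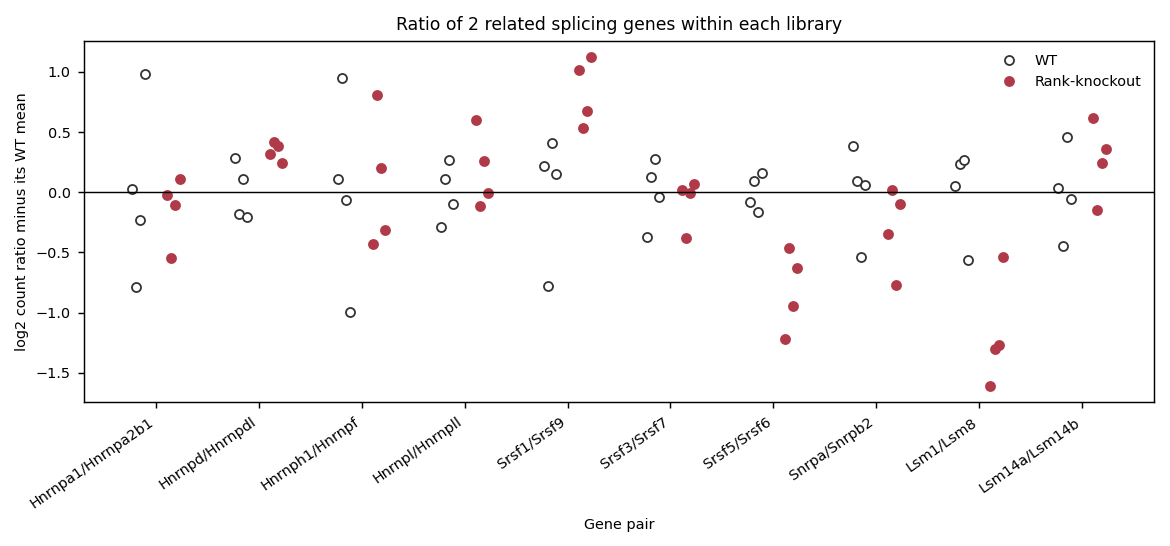
Log2 count ratio of each of 10 gene pairs in each library, minus the mean of the WT libraries for that pair, with open points for WT and filled points for Rank-knockout. Points of the genotypes are fully apart for Srsf1/Srsf9 and Srsf5/Srsf6 and overlap for the other 8 pairs.

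Other genes of the splicing pathway, on 9 lists of 128 genes that hold none of the members, were also more often higher than lower. Of 124 tested, 45 rose and 3 fell, with a median log2 fold change of 0.35, where 15.8% and 14.6% of all tested genes did so. Without WT replicate 4 the number that rose was 26, without Rank-knockout replicate 1 it was 27 and without Rank-knockout replicate 3 it was 29, and 0 fell by edgeR without either of these Rank-knockout libraries. Beside snRNP assembly, a list of exon junction, mRNA export and cap-binding genes had 6 of 10 higher (median 0.56), and 3 when WT library 1 or 4 or Rank-knockout library 1 was left out. Of the exon junction complex, which marks spliced junctions, the paralogs Magoh (0.89 ± 0.15, adjusted p = 7.6e-04, the smallest of that list) and Magohb (1.63) rose, and the other 4 rises were those of the export factors Alyref and Ddx39b and the cap-binding proteins Ncbp1 and Ncbp2. Eif4a3, Rbm8a, Casc3 and Rnps1, also of that complex or bound to it, gave 0.29, 0.47, 0.06 and -0.22 (adjusted p = 0.27, 0.0539, 0.81 and 0.63), and Eif4a3 and Rbm8a passed without WT library 2 (0.54 and 0.63). Of 15 proteins of U5 and the tri-snRNP, 4 rose, with the smallest p for the GTPase Eftud2 (1.09 ± 0.17, adjusted p = 4.6e-04), while the large U5 scaffold Prpf8 gave 0.27 (adjusted p = 0.28). That count was 2 without WT library 4 or Rank-knockout library 1 or 3, 6 without Rank-knockout library 4 or with totals without the 50 most abundant genes, and 8 with library totals. Of 17 genes of the Prp19 complex and the catalytic step, 3 rose, with Prpf19 itself at 1.25 ± 0.21 (adjusted p = 7.5e-04). These 3 are near the share over all tested genes, and 1 rise was left without any 1 of WT libraries 1, 4 and Rank-knockout libraries 1, 2, 3, against 5 with library totals. The U1, U2AF and branch site list had 3 of 13 higher: Snrnp70 (0.51), Rbm17 (0.91) and U2af1 (0.84 ± 0.21, adjusted p = 0.0067), which reads the 3′ splice site. Without WT library 2 the count was 5, and with library totals, or totals without the 50 most abundant genes, 9. In the minor spliceosome 2 of 8 rose, Snrnp25 (0.61 ± 0.16, adjusted p = 0.010) and Zrsr2 (0.54). Snrnp70 did not pass when WT library 1 was left out (0.48, adjusted p = 0.0528), nor did Zrsr2 when any 1 of WT libraries 1, 4 and Rank-knockout library 1 was left out (0.44 to 0.49, adjusted p = 0.061 to 0.070).

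Of 24 other RNA-binding splicing regulators tested, 12 rose and 2 fell, where 15.8% and 14.6% of all tested genes did so. The falls are fewer than that share. The number that rose was 8 without any 1 of WT libraries 1, 3, 4 and Rank-knockout library 3. Ptbp1, a repressor of exons, had the smallest p, at 271 ± 40.95 CPM in WT against 505 ± 41.8 CPM in Rank-knockout (± SD of 4 libraries), and a log2 fold change of 0.90 ± 0.15 (adjusted p = 5.7e-04). Its paralog Ptbp3 gave -0.25 (adjusted p = 0.25). Esrp1, the epithelial splicing regulator, rose by 0.71, while Esrp2 gave 0.21 (adjusted p = 0.57). The genes that fell were Rbm5 (-0.41 ± 0.14, adjusted p = 0.031) and Mbnl2 (-0.48, adjusted p = 0.032), whose paralog Mbnl1 rose by 0.39 (adjusted p = 0.042). Rbm5 did not pass when any 1 of WT library 4 and Rank-knockout libraries 1, 2, 3 was left out (-0.38 to -0.43, adjusted p = 0.059 to 0.085), nor did Mbnl2 when any 1 of WT libraries 1, 2 and Rank-knockout libraries 1, 3 was left out (-0.37 to -0.51, adjusted p = 0.062 to 0.099) and Mbnl1 when any 1 of WT libraries 1, 2, 3, 4 and Rank-knockout libraries 1, 2, 3 was left out (0.34 to 0.40, adjusted p = 0.069 to 0.11). Mbnl1 also missed the threshold with DESeq2 (0.38, adjusted p = 0.0521) and with no filter (0.43, adjusted p = 0.086), and Rbm5 with no filter (-0.37, adjusted p = 0.14). Under library totals none of the falls of Clk1, Rbm5 and Mbnl2 was called, with Rbm5 at -0.21.

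Markers of dividing crypt cells moved with the splicing genes. Of 12 listed, 11 were tested and all 11 rose, against 15.8% of all tested genes, with a median log2 fold change of 1.23 (Top2a 1.12, Mki67 1.15, Birc5 1.29). Their summed level was 522 to 828 CPM in WT against 1324 to 2115 CPM in Rank-knockout. Of the cycling markers Pcna (0.70) did not pass when any 1 of WT libraries 1, 3, 4 and Rank-knockout libraries 1, 3 was left out (0.53 to 0.64, adjusted p = 0.12 to 0.16), and 10 of the 11 passed with RLE size factors, DESeq2 and limma-voom (Pcna at 0.69, 0.71 and 0.66, adjusted p = 0.0542, 0.0531 and 0.081). Of the villus enterocyte markers, 9 of 10 fell, against 14.6% of all tested genes, with a median of -1.17. Their summed level was 20279 to 29762 CPM in WT against 10276 to 14559.5 CPM in Rank-knockout. Of these Anpep and Sis did not pass with library totals (-0.41 and -0.57), nor Anpep with limma-voom (-0.56, adjusted p = 0.061), and neither passed when any 1 of WT libraries 3, 4 and Rank-knockout libraries 1, 3 was left out (-0.63 to -0.50 and -0.75 to -0.58 over the libraries whose omission ended each call). By library, the mean of the cycling markers relative to the WT mean was 0.10, 0.25, 0.12 and -0.46 on the log2 scale in WT and 1.61, 1.04, 1.29 and 0.82 in Rank-knockout. Within Rank-knockout the order of the libraries, replicate 1, 3, 2 and 4 from high to low, was the same for these markers and for the median of the splicing genes. For the splicing genes replicates 2 and 4 were nearly level (0.49 and 0.48). Within WT, replicate 4 was the lowest in both, and the order of the other 3 differed. The part of what these markers follow in the values of the splicing genes was not tested.

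**Figure D5:**
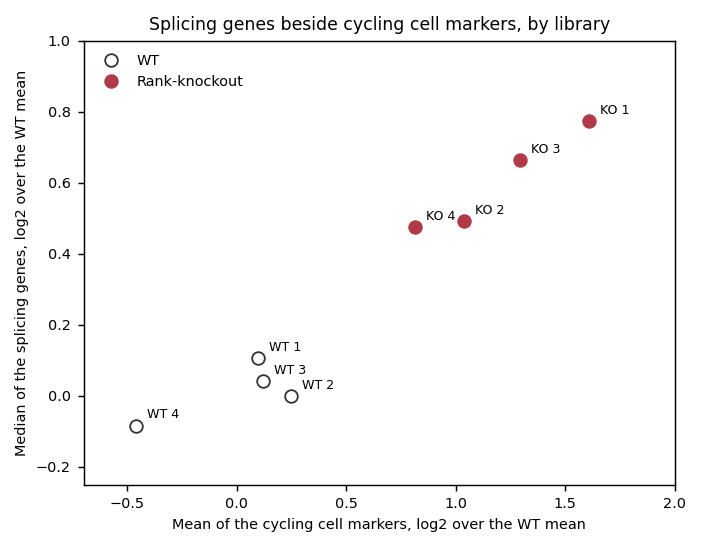
Median log2 level of the 61 splicing genes relative to the WT mean, against the mean of the 11 cycling cell markers on the same scale, with a point for each library. WT libraries lie at -0.08 to 0.11 on the y axis and Rank-knockout libraries at 0.48 to 0.77, and Rank-knockout replicate 1 is highest on both axes.

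Some of these genes share sequence with near-identical copies, to which reads may be split or lost. Among 50-base windows in the last 500 bases of the transcripts, the share also found on the same strand of another annotated gene was 46.9% for Hnrnpa3, 41.03% for Lsm7, 37.3% for Hnrnpf, 35.1% for Snrpc, 35% for Lsm5, 29.6% for Hnrnpk, 27.6% for Lsm3 and 26.1% for Snrpa. Values of these genes are uncertain for that reason, and of them Hnrnpa3 and Hnrnpk are among the 35 that rose. The 3′ end of Snrpf lies opposite Ccdc38 and that of Srsf4 opposite Gm12992 over all windows, but reads were counted on the sense strand.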

How the data were processed

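Per the labels and the study's methods, the authors made QuantSeq 3′ mRNA libraries from intestinal epithelial cells, read them from 1 end, trimmed the reads, removed ribosomal, mitochondrial and control sequences, aligned the rest to GRCm38 (mm10) with STAR and counted sense-strand reads per gene with featureCounts. The deposited values are raw counts per gene. No molecular identifiers are mentioned, so PCR copies count as reads. Total counts were 1530781 to 4335653 per library. CPM was not scaled by length, since a 3′ tag is taken once per transcript. The libraries are labelled as separate mice.

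Symbols and positions came from GENCODE M21 on the same build (54495 of 54532 identifiers matched). edgeR 4.0.16 in R 4.3.3 (quasi-likelihood F-test, robust, filterByExpr, TMM, genotype as the only term) was run on the whole table with Benjamini-Hochberg adjustment over 9855 genes and a threshold of 0.05, and it was tested on simulated data. CPM used TMM-adjusted library sizes. SE was taken from the F statistic. Count ratios had 0.5 added to each count and were compared by exact permutation. Alternatives were RLE size factors, library totals, totals without the 50 most abundant genes, omitting the filter, a minimum mean CPM of 5, the other tools DESeq2 1.42.0 and limma-voom (limma 3.58.1), the replicate number as a block, and omission of single libraries.

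The members, lists and pairs were chosen with earlier results of these data known. Any member may be named. Full values were set for the most counted member of each role, its 2 rises with the smallest p, any falls and the members of the pairs (some given here by their ratios), for Tnfrsf11a, and for the partner rise and fall with the smallest p of each list. Snrpg, Sf3b1, Sf3b3 and Srsf11 and the other partner genes were added after their values were seen.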

Additional observations from a re-analysis of the deposited data

Results flagged for a closer look

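In a group of 4 libraries, a library was noted when its gap to the nearest of the others, as a share of the group's range, was above Dixon's critical value, which chance gives in about 1 of 20 groups. Of 154 groups of values 6 were noted, where chance gives 7.70. WT replicate 2 had 4335653 counts in total, against 1530781 to 1616024 in the other WT libraries. It was also apart for Snrpf (5.83 CPM, against 14.6 to 15.8), Lsm10 (21.8 CPM, against 11.6 to 13.0) and Lsm14b (23.8 CPM, against 31.3 to 31.5). WT replicate 3 was apart for Snrpb2 (131.8 CPM, against 103 to 107). Rank-knockout replicate 1 was apart for Snrpg (24.8 CPM, against 14.8 to 15.8).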

How the results depend on the processing

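Of the 35 rises, 33 were kept under each of the 3 other scalings, 27 when each library was left out in turn, and the same 27 under all 16 alternatives. The 8 others are Snrpa1, Sf3b6, Srsf9, Hnrnpk, Hnrnpl, Hnrnpr, Hnrnpa3 and Hnrnpab. The number of splicing genes called higher was 33 with RLE size factors, 47 with library totals, 41 with totals without the 50 most abundant genes, 38 with no filter, 35 with a mean CPM of at least 5, 33 with DESeq2, 34 with limma-voom and 28 to 36 with libraries left out, and 0 were called lower under any of these alternatives. Genes gained with library totals were Lsm3, Lsm11, Lsm12, Snrpg, Snrpa, Sf3a2, Sf3b4, Hnrnpa1, Hnrnpdl, Hnrnph1, Hnrnpll and Hnrnpul2. Library totals shifted the median of all genes by 0.20 and totals without the 50 genes by 0.13, and the median of the splicing genes was 0.79 and 0.72 with them, and 0.52 to 0.64 with libraries left out. With these 2 scalings, 71 and 68 partner splicing genes were called higher and 0 and 0 lower. With no filter 1 was lower, and with libraries left out 26 to 50 were higher and 0 to 3 lower. Tnfrsf11a was at -0.47 (adjusted p = 0.11) with library totals, -0.54 (adjusted p = 0.077) without the 50 genes, and -0.81 to -0.52 with libraries left out. The cause was not tested. Adding 2 counts in place of 0.5 also gave 0 of 10 pair ratios past the threshold, but since 6 pairs at the smallest p are needed for any to pass, this says nothing about stability. Same-numbered samples of the genotypes deviated together with correlations of 0.052, 0.153, -0.139 and 0.323, so the numbers were not taken as pairs, and a fit with the replicate number as a block called 37 splicing genes higher and kept 34 of the 35 calls. It lost Hnrnpa3 (0.58, adjusted p = 0.0517) and gained Sf3a2 (0.61, adjusted p = 0.0065), Snrpg (0.86, adjusted p = 0.034) and Hnrnpa1 (0.71, adjusted p = 0.035). Among partner and marker genes the block ended the calls of Dcp1a (1.062, adjusted p = 0.057) and Anpep (-0.57, adjusted p = 0.051), and it gave 6 rises in place of 3 on the list of U1, U2AF and branch site genes. The smallest library held 1530781 counts, and Lsm5, Snrpc and Hnrnpa1 had 25, 110 and 288 counts over the 8 libraries.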
